A study of Mus musculus with 6 samples.

Results

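A set of 695 genomic regions was chosen by OCT4 and NANOG ChIP-Seq calls in sorted mouse embryonic stem cells (ESCs). Each region was called for both factors in Esrrb-GFP high cells and for OCT4 in Esrrb-GFP negative cells, and was called for NANOG in neither Esrrb-GFP medium nor Esrrb-GFP negative cells. Where both factors are bound in the high fraction, a region is termed Class II if the negative fraction keeps OCT4 without NANOG, and Class I if it keeps neither. The 695 regions therefore are the Class II regions at which the NANOG call was already gone in the medium fraction. They made up 44.4% of the 1565 Class II regions (95% Wilson interval 42.0 to 46.9%) and 2.92% of the 23767 distinct regions of the 6 libraries. Of the 3675 regions co-bound in the high fraction, they were 18.9% (17.7 to 20.2%).

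The cells were E-GFPd1 ESCs, an E14Tg2a line labelled Esrrb-2a-GFPd-IBIH, in which both copies of *Esrrb* carry a destabilised GFP that reports expression of the gene. They were grown in LIF and foetal calf serum and sorted by GFP. Esrrb-GFP high cells were the brightest 10%, Esrrb-GFP medium cells were the 15% lying next to the negative gate, and Esrrb-GFP negative cells made the last fraction. The labels give this last fraction as negative in the field for the sort and as low in the source name, and it is called negative here after the sort. All 3 fractions thus came from the same reporter line and the same culture condition, with no treatment or genotype that differs between them. OCT4 was precipitated with a goat polyclonal antibody (SC-8628) and NANOG with a rabbit polyclonal antibody, and 1 library was made per factor and fraction from pooled ChIPs. There were no replicate libraries, so no spread between replicates and no p-value is given. Intervals refer to counting error among regions, and regions of the same libraries are not replicates. The region lists hold positions and no signal or read numbers, so the depth of each library is unknown.

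OCT4 is a POU domain factor that ESCs require to stay pluripotent. It binds an octamer sequence, and together with SOX2 it binds a composite site in which a SOX half-site precedes the POU half-site. NANOG is a homeodomain protein that promotes self-renewal and fluctuates between cells in serum cultures. *Esrrb*, a gene activated by NANOG, encodes an orphan nuclear receptor that binds an extended half-site. The authors report that cells that lose *Esrrb* expression are committed to leaving the naive state.

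A few of the regions are shown first, because the comparisons below turn on whether such sites lie in them. Sequences are the plus strand of mm9, 5′ to 3′. Capitals mark an octamer (ATGCAAAT) or an Oct-Sox core (TTGTNATGC, the end of a SOX site, a spacer base N and the start of a POU site), on either strand. The regions lie near *Sox2*, the partner of OCT4, *Etv5*, an ETS factor of FGF signalling, *Utf1*, a chromatin factor of undifferentiated ESCs, *Dppa3*, a maternal factor that marks naive cells, and *Sox13*. The region at *Sox13* holds no match and is shown for contrast. Regions with a match were put first, so the display does not show how common a match is. Of the 20 regions near the listed genes described below, 5 had either motif within 100 bp of the centre.
Sox2, chr3:34552952-34553031: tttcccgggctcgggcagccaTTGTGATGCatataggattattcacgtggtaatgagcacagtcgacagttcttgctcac
Etv5, chr16:22412012-22412111: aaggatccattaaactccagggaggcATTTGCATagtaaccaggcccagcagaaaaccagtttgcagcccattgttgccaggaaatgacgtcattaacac
Utf1, chr7:147131552-147131671: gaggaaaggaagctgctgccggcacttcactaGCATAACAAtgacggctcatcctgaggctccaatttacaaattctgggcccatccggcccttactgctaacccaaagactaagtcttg
Dppa3, chr6:122574452-122574731: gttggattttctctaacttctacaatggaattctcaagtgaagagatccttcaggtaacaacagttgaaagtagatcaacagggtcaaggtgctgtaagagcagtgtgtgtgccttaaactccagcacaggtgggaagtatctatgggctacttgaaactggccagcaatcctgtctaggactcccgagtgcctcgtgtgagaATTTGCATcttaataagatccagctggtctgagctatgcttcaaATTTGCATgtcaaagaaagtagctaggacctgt
Sox13, chr1:135294292-135294391: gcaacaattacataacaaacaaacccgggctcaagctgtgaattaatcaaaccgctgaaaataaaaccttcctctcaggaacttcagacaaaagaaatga
The *Sox2* region carried an Oct-Sox core on the plus strand and the *Utf1* region carried one on the minus strand. The *Etv5* region carried 1 octamer and the *Dppa3* region carried 2, all on the minus strand. A match is a description of the letters in the window and does not show where a factor was bound.

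By selection, every one of the 695 regions was called for both factors in the high fraction, for OCT4 and not NANOG in Esrrb-GFP negative cells, and not for NANOG in medium cells. These 5 calls are a description and carry no test. As background for them, 52.3% of the 9425 regions with NANOG in the high fraction had no NANOG call in medium cells. The 695 regions were 14.1% of those 4925 regions (13.2 to 15.1%). The authors dropped a region from a fraction when its signal, scaled for depth, fell under 50% of the maximum for that region. Values just inside and just outside this threshold cannot be given, because the lists hold no signal, and the calls of a region in several libraries share its maximum. A call that is absent therefore means a signal under the threshold and not an empty site.

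OCT4 in Esrrb-GFP medium cells was the only library whose call the selection did not use. That call shares the maximum of its region with the OCT4 calls that the selection used, so it is not independent of them. OCT4 was called there at 648 of the 695 regions, 93.2% (91.1 to 94.9%), and was missing at 47. Most of the regions thus had OCT4 calls in all 3 fractions and a NANOG call in the high fraction alone. Over all 6837 regions with OCT4 in both high and negative cells, the share called in medium cells was 83.6%, which is the background for the 93.2%. The 870 Class II regions that still had NANOG in medium cells carried OCT4 there at 813, 93.4% (91.6 to 94.9%). The odds ratio between both kinds of Class II region was 0.967 (95% interval 0.648 to 1.44), and the difference of -0.211 percentage points had an interval from -2.78 to 2.26. No difference in OCT4 was detectable between Class II regions with and without NANOG in medium cells, within these bounds.

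Class I regions without NANOG in medium cells have the same NANOG calls and differ by the OCT4 call in negative cells. At these 966 regions OCT4 was called in medium cells at 717, 74.2% (71.4 to 76.9%), so 249 had a call for neither factor in the medium fraction. The share at the 695 regions was 19.0 percentage points higher (15.6 to 22.3), an odds ratio of 4.79 (3.44 to 6.66). Both groups were defined by their OCT4 call in negative cells. The part of this difference that follows from that selection was not tested. OCT4 was called in high and negative cells at a further 5175 regions that were never called for NANOG, and 4166 of these had OCT4 in medium cells, 80.5% (79.4 to 81.6%). The 695 regions exceeded them by 12.7 points (10.4 to 14.7). The 5175 regions were narrower, with a median width of 80 bp against 160 bp, and the part of width in this difference was not tested.

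**Figure D1:**
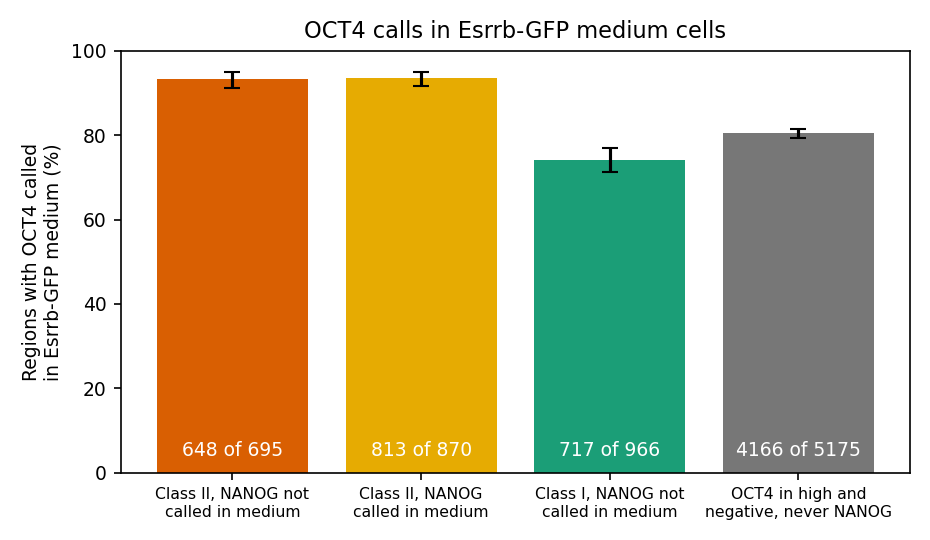
Share of regions (%, bars) with OCT4 called in Esrrb-GFP medium cells, with 95% Wilson intervals, for Class II regions without and with NANOG in medium cells, Class I regions without NANOG in medium cells, and regions with OCT4 in high and negative cells that never had NANOG. The 2 Class II bars stand at 93.2% and 93.4%, above the Class I bar at 74.2% and the bar of regions that never had NANOG at 80.5%.

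The 47 regions without OCT4 in medium cells had it in high and in negative cells, so their OCT4 call was interrupted. Their width was 120 bp at the median, with quartiles of 90 and 180 bp, against 180 bp for the other 648. Of the 47, 24 were intergenic, 21 intronic and 2 lay in promoters, those of *Lpar1*, a receptor for lysophosphatidic acid, and *Vmn1r77*, a vomeronasal receptor gene. Both were singled out after their values were seen. An octamer or Oct-Sox core lay within 100 bp of the centre at 5 of the 47, 10.6%, and at 145 of the 648, 22.4%. The odds ratio was 2.42 (0.941 to 6.23), so a difference was not detectable with so few regions. The 5 regions, also named after the fact, were chr1:3473032-3473151, chr11:18073112-18073291, chr13:22936172-22936391, chr14:13671012-13671091 and chr14:82866652-82866771.

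Each region is a merged peak of all datasets. Their widths ran from 40 to 1040 bp with a median of 160 bp and quartiles of 120 and 240 bp, against a median of 80 bp for all regions, and together they covered 138420 bp. Class II regions with NANOG in medium cells and Class I regions without it both had a median of 180 bp. A width of 100 bp or more was found at 605 of the 695 regions, 87.1%, against 89.2% for Class II regions with NANOG in medium cells (odds ratio 0.814, 0.598 to 1.11). The median GC content within 100 bp of the centre was 46.8%, against 47.3% for Class II regions with NANOG in medium cells, 46.3% for Class I regions without it and 48.3% for all regions. A window without any CpG was found at 164 regions, 23.6%. That share was 23.2% and 24.3% in the same 2 groups and 17.2% at the regions that never had NANOG (odds ratio 1.48, 1.23 to 1.79). The widest of the regions, of 1040 bp, was centred 260 bp from the start of *Tead1*, a transcription factor of the Hippo pathway. Every autosome held some of them, chromosome X held 9 and chromosome Y held none.

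Most of the regions lay away from promoters. Of the 695, 411 were intergenic, 59.1% (55.4 to 62.7%), and 243 lay in introns, 35.0% (31.5 to 38.6%). A centre within 1 kb of the transcription start site of a protein-coding gene was found for 34, 4.89% (3.52 to 6.76%), against 7.22% of all regions. Coding exons held 2 regions, in *Phf3* and *Lgr5*, and untranslated exons held 5, near *Fzd5*, *Eif4e2*, *Chrm1*, *Notch1* and *Pax6*, all 7 named after their positions were seen. The median distance to the nearest start site was 36570 bp, and 188 regions, 27.1%, were more than 100 kb from any.

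Among the 34 promoter regions were some with *Fgfr1*, *Jag1*, *Bmi1*, *Etv1*, *Tdh* or *Itga6* within 20 kb, chosen after their positions were seen. The nearest start site was not assigned to a gene. The region near *Bmi1* also had *Commd3* within 20 kb, and that near *Itga6* also had *Gm1631*, so the promoter could be that of either. *Jag1* encodes a Notch ligand, *Bmi1* a Polycomb protein, *Etv1* an ETS factor, *Tdh* a threonine dehydrogenase of mouse ESC metabolism and *Itga6* a laminin receptor subunit. The promoter share did not differ detectably from that of Class II regions with NANOG in medium cells, 5.29% (odds ratio 0.921, 0.585 to 1.45), or of Class I regions without it, 3.52% (1.41, 0.868 to 2.29). It was lower than the 9.20% of regions that never had NANOG (0.508, 0.355 to 0.726). With promoters drawn more tightly, within 500 bp, the 695 regions held 28, 4.03%, and the Class I regions 17 of 966, 1.76%, an odds ratio of 2.34 (1.27 to 4.32). Against Class II regions with NANOG in medium cells, which held 25, 2.87%, the odds ratio within 500 bp was 1.42 (0.820 to 2.46). Within 5000 bp the odds ratio against the Class I regions was 1.06 (0.813 to 1.39). With the start sites of all annotated genes it was 1.34 (0.861 to 2.10). The excess over Class I regions was therefore detectable within 500 bp only.

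Sequence was compared with a panel of 13 motifs, each searched on both strands within 100 bp of region centres. The share of all 23767 regions with each motif and the share in windows 10 kb downstream of the 695 regions serve as references. OCT4 motifs came first. The Oct-Sox core was found at 90 of the 695 regions, 12.9% (10.7 to 15.7%), against 7.35% of all regions and 1.01% of the downstream windows. The octamer was found at 67, 9.64% (7.66 to 12.1%), against 7.87% and 1.44%. The motifs overlap in letters, and 7 regions had both. Either motif lay within 100 bp of the centre at 150 regions, 21.6% (18.7 to 24.8%), against 14.7% of all regions, so most of the 695 held neither exact sequence there.

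OCT4 motifs were more frequent in the 695 regions than in Class I regions without NANOG in medium cells. The Oct-Sox core reached 7.87% in the latter (odds ratio 1.74, 1.26 to 2.40) and the octamer 6.83% (1.45, 1.02 to 2.07). Either motif was found at 141 of the 966, 14.6% (1.61, 1.25 to 2.08). With 1 mismatch allowed in the Oct-Sox core its odds ratio was 1.20 (0.988 to 1.47), and in windows of 50 bp either side that of the octamer was 1.45 (0.946 to 2.22), so neither call held there. Against Class II regions with NANOG in medium cells, no difference was detectable within 100 bp of the centre. There the Oct-Sox core reached 10.3% (1.29, 0.945 to 1.76), the octamer 9.20% (1.05, 0.749 to 1.48) and either motif 18.6% (1.20, 0.938 to 1.54). In windows of 250 bp either side, the Oct-Sox core was more frequent in the 695 regions than in these (1.43, 1.07 to 1.91). Regions that never had NANOG held the octamer more often, at 12.3% (0.757, 0.581 to 0.987), and the Oct-Sox core at 12.2% (1.08, 0.849 to 1.36).

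The ESRRB motif (TCAAGGTCA with at most 1 mismatch) was less frequent at the 695 regions than at either related class. It was found at 66, 9.50% (7.53 to 11.9%). Class II regions with NANOG in medium cells held it at 120 of 870, 13.8% (11.7 to 16.2%), an odds ratio of 0.656 (0.477 to 0.902). Class I regions without NANOG in medium cells held it at 158 of 966, 16.4% (14.2 to 18.8%), an odds ratio of 0.537 (0.395 to 0.728). Regions that never had NANOG held it at 6.65%, below the 695 regions (1.47, 1.12 to 1.94), and all regions at 11.2%. In windows 10 kb downstream of the 695 regions the share was 7.19% (5.50 to 9.36%), an interval that overlaps that of the regions themselves, and the same letters in reversed order were found at 4.75%. With 2 mismatches allowed, the difference from Class II regions with NANOG in medium cells was no longer detectable (0.933, 0.763 to 1.14).

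A lower ESRRB share at regions without NANOG in medium cells was also found within Class I, a comparison added after the data had been seen. The motif was at 16.4% of Class I regions without NANOG in medium cells and at 218 of the 1068 with it, 20.4%, an odds ratio of 0.762 (0.608 to 0.956). The ratio of the Class II odds ratio to the Class I odds ratio was 0.860 (0.582 to 1.27), so the split by NANOG was not detectably larger in Class II. For the Oct-Sox core this ratio was 1.14 (0.724 to 1.80) and for the octamer 1.07 (0.659 to 1.74).

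Of the other motifs, 1 differed from a related class by its interval. TEAD (GGAATG, the site of the Hippo pathway factors) was found at 128 of the 695 regions, 18.4%, against 14.6% of Class I regions without NANOG in medium cells (1.32, 1.02 to 1.72), 15.4% of Class II regions with it (odds ratio 1.24, not detectably different) and 15.7% of all regions. In windows of 50 bp either side the odds ratio against Class I regions was 1.22 (0.867 to 1.71), in windows of 250 bp 1.06 (0.863 to 1.31) and in strata of GC content 1.30 (0.996 to 1.68), so the call was lost in each of these. SOX (CCATTGT) reached 9.35%, homeobox (TAATGG, a sequence bound by NANOG) 11.8%, KLF (GGGNGTGG) 11.9%, OTX (TAATCC) 9.64%, AP-1 (TGANTCA) 8.92%, TCF (ATCAAAG) 5.61%, FOX (TGTTTAC) 3.74%, GRHL (AACCGGTT with at most 1 mismatch) 3.74% and STAT (TTCCNGGAA) 0.719%. Over all regions these shares were, in the same order, 7.22, 9.56, 11.9, 7.99, 8.11, 5.12, 3.83, 3.48 and 0.791%. In the windows 10 kb downstream they were 2.88, 6.04, 5.47, 9.06, 6.47, 3.45, 1.87, 2.16 and 0.863%. The reversed letters of OTX, FOX, GRHL and STAT were more frequent in the 695 regions than the motifs, at 9.78, 4.60, 6.91 and 1.01%. None of these 9 differed from either related class beyond its interval within 100 bp of the centre. AP-1 did so in other windows. Its odds ratio within 50 bp was 1.64 (1.02 to 2.64) against Class II regions with NANOG in medium cells and 2.36 (1.42 to 3.92) against Class I regions without it, and within 250 bp it was 1.39 (1.08 to 1.79) against the latter. Over all 13 motifs, 1 interval excluded an odds ratio of 1 against Class II regions with NANOG in medium cells, 4 did against Class I regions without it, and 4 did against regions that never had NANOG. The last 4 were the octamer, ESRRB, SOX and homeobox. At regions that never had NANOG, SOX reached 5.24% (odds ratio 1.87, 1.41 to 2.48) and homeobox 7.36% (1.68, 1.31 to 2.17), both below the 695 regions. The intervals are not adjusted for the number of motifs and groups compared.

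**Figure D2:**
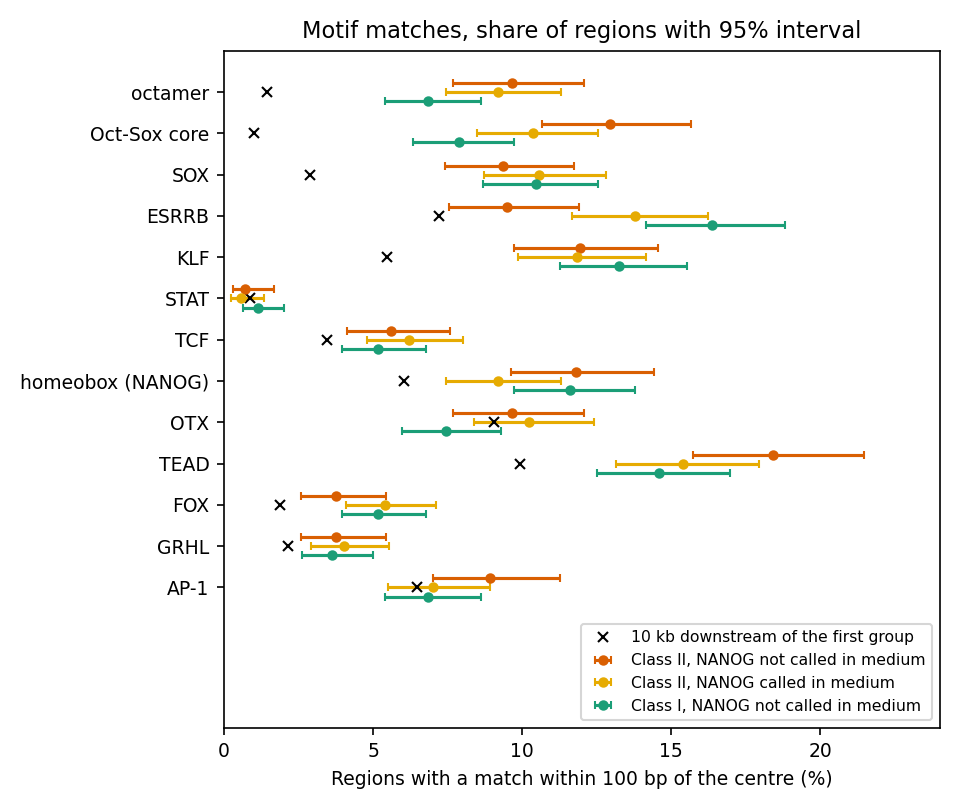
Share of regions (%) with each of the 13 motifs within 100 bp of the centre, with 95% Wilson intervals as bars, and the share in windows 10 kb downstream of the first group as crosses. The Oct-Sox core of the Class II regions without NANOG in medium cells lies at 12.9% against 7.87% for the Class I regions, while their ESRRB share of 9.50% is the lowest of the 3 groups.

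Where the OCT4 motifs were present, they lay near the centres of the regions. The median distance of the nearest Oct-Sox core from the centre was 25.5 bp over the 90 regions with one, and 45 of them had it within 25 bp. For the octamer the median was 28.5 bp over 67 regions. In bins of 25 bp, the Oct-Sox core reached its highest share in the 695 regions, 3.74%, at -12.5 bp from the centre. The highest bin was 2.41% in Class II regions with NANOG in medium cells and 2.48% in Class I regions without it. These shares are over all regions of a class, so they also rise with the share that holds the motif. Among the regions with an Oct-Sox core, the median distance was 31.5 bp in the former class and 26 bp in the latter. There 42.2% and 50% of them had it within 25 bp, so central placement was not particular to the 695 regions. The ESRRB motif was not centred in the same way. Its median distance was 55 bp over 66 regions, and 10 of them, 15.2%, had it within 25 bp, against 50% for the Oct-Sox core. Within 100 bp of the centre, 196 of the 695 regions (28.2%) held none of the 13 motifs and 65 held 3 or more kinds, up to a maximum of 4.

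**Figure D3:**
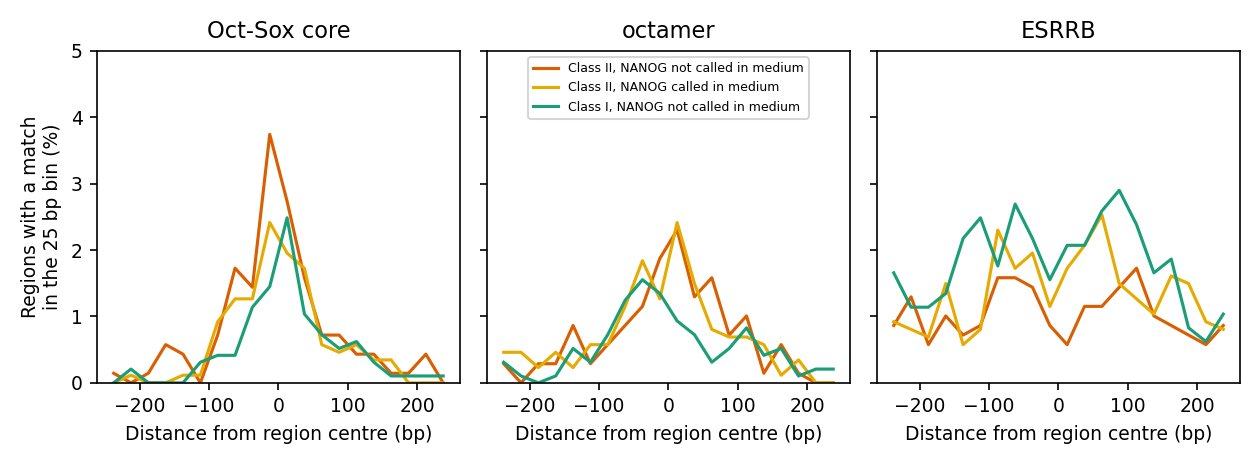
Share of regions (%) with a match in each bin of 25 bp against distance from the region centre (bp), for the Oct-Sox core, octamer and ESRRB motifs, with 1 line per class. The Oct-Sox core peaks at 3.74% next to the centre in Class II regions without NANOG in medium cells, and the ESRRB lines have no central peak.

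Bound neighbours were less common around the 695 regions than around the other Class II regions. Another bound region of any kind lay within 5 kb of 259, 37.3% (33.8 to 40.9%), close to the 36.4% of all regions. For Class II regions with NANOG in medium cells the share was 44.3%, so the 695 regions differed by -6.99 points (-11.8 to -2.08), an odds ratio of 0.748 (0.610 to 0.918). Class I regions without NANOG in medium cells had a share of 36.7%. A region with NANOG in medium cells lay within 5 kb of 72 of the 695, 10.4%, and of 10.2% of all regions. The share was 13.1% for the other Class II regions (0.766, 0.560 to 1.05), a difference that was not detectable. Another of the 695 regions lay that close to 18, 2.59%, against 1.62% of all regions. A Class II region with NANOG in medium cells lay that close to 15, 2.16%, against 2.43% of all regions.

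Genes were assigned where their body lay within 20 kb of a region. Of 22380 protein-coding genes, 502 had at least 1 of the 695 regions that close, 2.24%, which is the background for the gene groups below. Of the regions, 275 had no such gene, 330 had 1 and 90 had several. Most genes had a single region, 470 of 502, while 31 had 2 and *Etl4* had 3. *Etl4* is annotated over 900934 bp of chromosome 2, and its regions chr2:20131032-20131231, chr2:20574852-20575051 and chr2:20591032-20591351 all lay in introns and had OCT4 in medium cells. Genes with 2 regions included, in alphabetical order, *A530053G22Rik*, *Arhgap26*, *B3gnt7*, a glycosyltransferase, and *Cadps*, a factor of dense-core vesicle release. Of the 502 genes, 55 also had a Class II region with NANOG in medium cells and 56 a Class I region without it. Of all 22380 protein-coding genes, 676 (3.02%) had the former and 767 (3.43%) the latter. The overlap was not tested.

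Genes were then read by group, from 6 lists with 152 annotated genes in all, chosen with earlier results of these data known. Of these genes, 21 had 1 of the regions within 20 kb, through 20 regions, of which 19 had OCT4 in medium cells. No test of a list was made, and proximity does not show that a region acts on a gene. The core pluripotency list had 3 of 10 genes, *Sox2*, *Utf1* and *Lin28a*, which encodes a regulator of let-7 microRNA processing. The *Sox2* region (chr3:34552952-34553031, 80 bp) lay 4064 bp downstream of the annotated start of the gene (chr3:34548927-34551383, plus strand). It held an Oct-Sox core, and matches to SOX, KLF and OTX lay within 100 bp of its centre. Within 20 kb of *Sox2* lay also 2 Class II regions that kept NANOG in medium cells. The *Utf1* region (chr7:147131552-147131671) lay 1923 bp downstream of its start, just beyond the end of the gene (chr7:147129688-147131011, plus strand). The *Lin28a* region (chr4:133572772-133572991) was intronic.

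The naive list had 5 of 25 genes, *Dppa3*, *Gdf3*, *Dppa5a*, *Tdgf1* and *Rif1*. *Dppa3* and *Gdf3*, a TGF-beta family ligand, lie next to each other and shared 1 region, chr6:122574452-122574731, centred 1837 bp upstream of the start of *Dppa3* (chr6:122576428-122580290, plus strand) and 14486 bp upstream of that of *Gdf3*. The *Dppa5a* region (chr9:78212712-78212791) was the only one near a listed gene with an ESRRB match within 100 bp of its centre. The regions of *Tdgf1*, a co-receptor for Nodal, and *Rif1*, a factor of replication timing, lay 1279 bp and 1316 bp upstream of their starts, at chr9:110849792-110850091 and chr2:51926912-51927171. Both held a KLF match.

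The list of formative and primed genes had 5 of 26, *Lef1*, *Foxd3*, *Etv5*, *Sall3* and *Sox13*. The *Etv5* region (chr16:22412012-22412111) was intronic, 27731 bp from the start (gene at chr16:22381382-22439792, minus strand), and had octamer, SOX, homeobox and GRHL matches, the most of this group. The regions upstream of *Lef1*, a WNT effector (chr3:130805292-130805411), and *Foxd3*, a forkhead factor of ESCs and neural crest (chr4:99308612-99308931), showed no match to any of the 13 motifs within 100 bp of their centres. Nor did the intronic regions of *Sall3* and *Sox13*. A Class II region with NANOG in medium cells also lay within 20 kb of *Lef1* and of *Etv5*.

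Signalling genes with a region numbered 4 of 38. The *Fgfr1* region (chr8:26623792-26624051), 205 bp upstream of the start, lay in the promoter of this FGF receptor and had octamer, KLF and TCF matches. *Tcf7l1*, a repressor of the WNT pathway in ESCs, had an intronic region (chr6:72627552-72627991) and *Fzd5*, a WNT receptor, one in an untranslated exon (chr1:64780132-64780271). The region of *Fgfr2* (chr7:138847992-138848091) was the only one of the 20 without OCT4 in medium cells. It lies inside an annotated gene body of unusual length, 1466992 bp from the start, so its link to *Fgfr2* rests on that annotation.

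Chromatin genes numbered 2 of 26, *Dnmt3l*, a cofactor of de novo DNA methylation (chr10:77511012-77511231, intronic), and *Ep300*, a histone acetyltransferase. The *Ep300* region (chr15:81493852-81494011) lay 11345 bp beyond the gene, in the promoter of another. Lineage genes numbered 2 of 27, *Foxa2*, a factor of definitive endoderm and notochord (chr2:147866432-147866711), and *Pax6*, a neural factor (chr2:105531472-105531611). Class II regions with NANOG in medium cells lay near 4 core, 7 naive, 5 formative and primed, 8 signalling, 7 chromatin and 1 lineage gene of the same lists. For Class I regions without NANOG in medium cells these counts were 2, 5, 1, 3, 6 and 2. Over all protein-coding genes the shares were 3.02% and 3.43%, against 2.24% for the 695 regions. Regions that never had NANOG lay near 30, 36, 38.5, 36.8, 30.8 and 40.7% of the lists in the same order, and near 17.6% of all protein-coding genes. The listed genes thus had more of these regions nearby as well. Differences between lists were not tested.

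**Figure D4:**
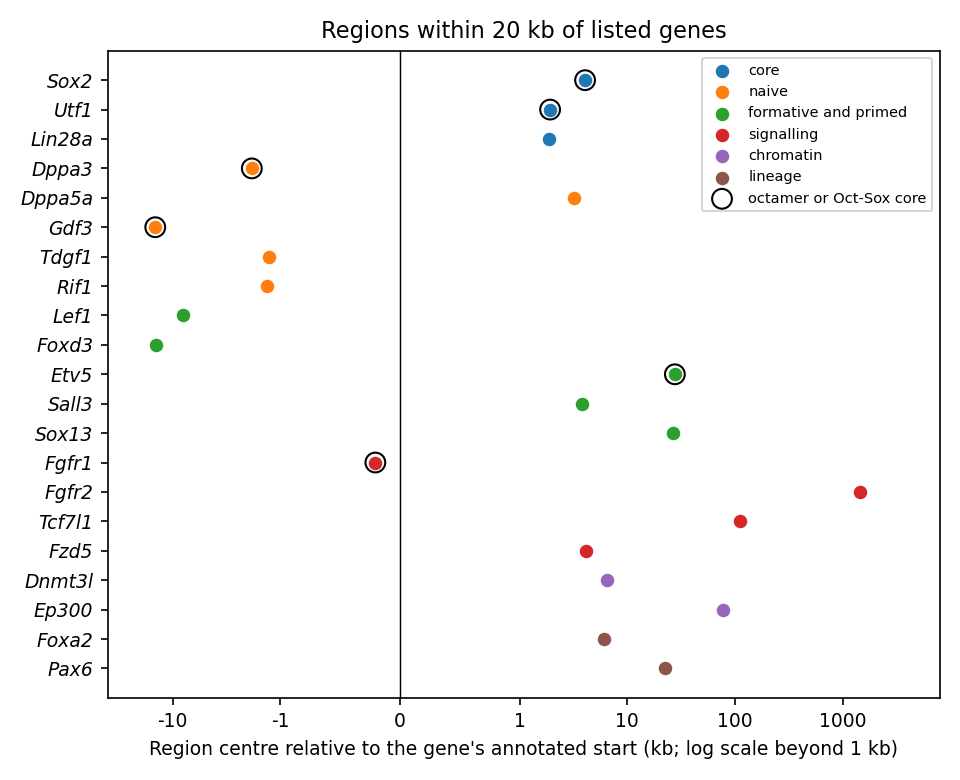
Position of the region near each of the 21 listed genes relative to the annotated start of the gene (kb, linear within 1 kb and log scale beyond), coloured by gene list, with a ring where the region had an octamer or Oct-Sox core within 100 bp of its centre. Positions run from 14486 bp upstream of *Gdf3* to 1466992 bp downstream of *Fgfr2*, and *Fgfr1* is the closest at 205 bp.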

How the data were processed

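OCT4 and NANOG ChIP-Seq of E-GFPd1 ESCs sorted by Esrrb-GFP was examined, with 1 library for each factor and fraction. Groups came from the antibody and fraction in the labels. The authors mapped reads with Bowtie (per the submitters' processing notes) to mm9, called peaks with SISSRs in GeneProf, merged the overlapping peaks of all datasets, and dropped a region from a fraction where under 50% of its highest depth-normalized signal remained. The deposited lists hold intervals only, with widths in steps of 20 bp. Widths therefore depend in part on how many libraries called a region, and read depth is unknown.

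Members were intervals matched exactly between lists. The members and the gene lists were chosen with earlier results of these data known. Comparison groups were Class II regions with NANOG in medium, Class I regions without it, and regions with OCT4 in high and negative that never had NANOG. Shares have 95% Wilson intervals, odds ratios have 95% intervals on the log scale, and differences have Newcombe intervals. Sequences and GENCODE genes were of NCBIM37 (mm9), and all interval ends lay within its chromosomes. Named genes are all listed genes with a member within 20 kb and the 5 genes with most members, ties in alphabetical order. Sequences shown were taken in rule order from core, naive and formative or primed genes, those with an OCT4 motif first. Promoters within 500 bp, width, CpG content, the Class I split by NANOG and 6-mers were compared after the data had been seen.

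Alternatives were joining regions within 100 bp or 500 bp, regions of at least 100 bp, autosomes only, half-windows of 50 or 250 bp, 1 more mismatch, strata of GC or width quartiles, and other distances to genes, start sites and neighbours. Python 3.11.15, numpy 2.4.6, pandas 2.3.3, scipy 1.17.1, pysam 0.24.0, samtools 1.23.1 and matplotlib 3.10.9 were used. The functions were tested on simulated lists of 5000 regions, where 31 of 31 known answers were recovered.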

Additional observations from a re-analysis of the deposited data

How the results depend on the processing

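No paired analysis was possible because every factor and fraction has 1 library, and no replicate could be left out. The number of regions ran from 605 (at least 100 bp wide) to 781 (joined within 500 bp), against 695. For OCT4 in medium cells, the odds ratio against Class II regions with NANOG in medium cells passed from 0.967 to 1.00 in strata of width, and against Class I regions without it stayed between 4.71 and 5.26. The odds ratio for bound neighbours within 5 kb, 0.748, was 0.784 within 2 kb and 0.746 within 20 kb. The promoter odds ratio of 0.921 against the other Class II regions became 1.42 within 500 bp, 0.961 within 5000 bp and 0.871 with all annotated genes. Against Class I regions, 1.41 became 2.34, 1.06 and 1.34 in the same order. Of these, only the odds ratio of 2.34 had an interval that excluded 1. The genes with a region numbered 321 within 5 kb, 854 within 50 kb and 392 when the closest gene alone was taken, against 502 within 20 kb.

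The number of motifs whose interval excluded 1 against the other Class II regions was 1, but 2 in windows of 50 bp, 2 in windows of 250 bp and 0 with 1 more mismatch. Odds ratios that crossed 1, all with intervals that held 1 throughout, were as follows. Against the other Class II regions they were SOX 1.08, KLF 0.941 and GRHL 1.26 in windows of 50 bp, KLF 0.982 and OTX 1.01 in windows of 250 bp, and KLF 0.879 and STAT 0.952 with 1 more mismatch, as well as octamer 0.839. Against Class I regions they were KLF 1.03 and TCF 0.908 in windows of 50 bp, TCF 0.853 and homeobox 0.798 in windows of 250 bp, STAT 1.12 and GRHL 0.981 with 1 more mismatch, and GRHL 0.983 in strata of GC. The ESRRB difference from Class I regions kept its direction and an interval below 1 in every alternative run. The TEAD and octamer differences from Class I regions were not detectable in windows of 50 bp or 250 bp, nor was that of TEAD in strata of GC (1.30, 0.996 to 1.68). The second motif against the other Class II regions was AP-1 in windows of 50 bp (1.64) and the Oct-Sox core in windows of 250 bp (1.43), beside ESRRB. Against Class I regions, AP-1 became more frequent in windows of 50 bp (2.36) and 250 bp (1.39). The cause of these changes was not tested.

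Limits: 1 reporter line, pooled ChIPs and 1 library per condition, calls without signal, and a threshold relative to each region's own maximum. A factor that binds less and one bound in fewer cells cannot be told apart.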

Other observations

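All 2080 sequences of 6 bases, each counted with its reverse complement, were compared within 100 bp of region centres after the data had been seen. Against Class I regions without NANOG in medium cells, 183 had an interval that excluded an odds ratio of 1 (8.80%), 86 of them higher and 97 lower in the 695 regions. Against Class II regions with NANOG in medium cells, 112 did (5.38%), 54 higher and 58 lower. The intervals are not adjusted for the number compared. The share of 5.38% is close to what such intervals exclude when groups do not differ. Against Class I, the highest ranked was TGCAAA, which is part of the octamer, at 36.8% against 24.5% (1.79, 1.45 to 2.22). Next came AGGTCA, the nuclear receptor half-site within the ESRRB motif, at 12.8% against 22.2% (0.516, 0.394 to 0.676). Against the other Class II regions, the highest ranked was ATGGTC, which was more frequent in the 695 regions (2.32, 1.43 to 3.75). AGGTCA ranked lower there, with 17.9% in the other Class II regions (0.672, 0.507 to 0.891). TGCAAA and AGGTCA are parts of panel motifs and were counted in the same windows. They are therefore not independent of the octamer and ESRRB results.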
